A study of Mus musculus with 13 samples.

Results

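The Sox genes described here are Sox2, Sox4, Sox5, Sox6, Sox8, Sox9, Sox10, Sox11 and Sox12, 9 of the 52550 genes in the count table, chosen by name as Sox transcription factors of neurons and glia. They fall into 4 subgroups: SoxB1 (Sox2), SoxC (Sox4, Sox11 and Sox12), SoxD (Sox5 and Sox6) and SoxE (Sox8, Sox9 and Sox10). Bulk RNA-seq was made from retinal cells of mice sorted by FACS for Thy1.2, a surface protein of retinal ganglion cells (RGCs) that some lymphocytes also carry. The AAV2-Cre group (2 libraries) carried a knockout of Kdm6a, also called UTX, an H3K27 demethylase, after an AAV2 vector with Cre recombinase, and the AAV2-GFP group (3 libraries) received an AAV2 vector with GFP. Both were P42 adults taken 3 days after optic nerve crush. The study describes the mice of both groups as Kdm6a f/f, carrying floxed Kdm6a alleles, and the design text calls AAV2-GFP wild type. The P1 (3 libraries), P14 (3) and P21 (2) groups came from wild type mice at postnatal days 1, 14 and 21. AAV2 given into the eye reaches RGCs but not every retinal cell, and the sort took infected and uninfected cells alike. No source used here gives the number of animals behind a library, so p-values measure the spread between these libraries, which may be partly technical.

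Total counts ran from 13637602 to 16070720 in the 5 injured libraries (the knockout dataset) and from 30357454 to 38812917 in the 8 libraries of the development dataset. Replicates differed by more than sampling noise, with a chi-square per degree of freedom of 3.77 to 36.9 over the replicate pairs. Kdm6a had 110.4 and 111.9 CPM (counts scaled to library size with TMM factors) in AAV2-Cre and 96.5, 114.8 and 118.6 CPM in AAV2-GFP. Counts over the whole gene do not test the loss of a short floxed segment. The sorted material held more than RGCs. The summed CPM of 18 RGC markers ranged between 481.7 and 610.2 for AAV2-Cre, 500.3 and 606.4 for AAV2-GFP, 7696 and 8498 for P1, 1332 and 1440.3 for P14, and 657 and 982 for P21. The RGC factors Pou4f2 and Irx2 were at 0 counts in both AAV2-Cre libraries. That of 16 Müller glia markers ranged between 6058 and 9132 for AAV2-Cre, 4288 and 6708 for AAV2-GFP, 2565 and 6746 for P1, 23292 and 24707 for P14, and 43128 and 44564 for P21. In such bulk samples, fewer cells of a type and less RNA per cell cannot be told apart.

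Sox proteins bind DNA in the minor groove through a high mobility group (HMG) box and bend it, usually beside a partner factor. SoxB1 factors keep neural progenitors undifferentiated, SoxC factors act in newly born neurons, and SoxE factors act in glia and neural crest. SoxD proteins have no activation domain of their own and modify the action of other Sox proteins. In the mouse retina, Sox4 and Sox11 are needed for RGCs to form, Sox11 has been tied to axon regrowth of RGCs, and Sox2, Sox8 and Sox9 are found in Müller glia, which span the retina and support its neurons.

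The members are spread over the mouse genome (GRCm38, GENCODE annotation). The SoxC genes lie at chr13:28948919-28953713 (Sox4, minus strand), chr12:27334264-27342574 (Sox11, minus) and chr2:152393611-152398063 (Sox12, minus). Sox2 lies at chr3:34650405-34652461 (plus), Sox8 at chr17:25565892-25570686 (minus), Sox9 at chr11:112782224-112787760 (plus) and Sox10 at chr15:79154908-79165240 (minus). The long SoxD genes lie at chr6:143828425-144781977 (Sox5, minus) and chr7:115470872-116038796 (Sox6, minus). Sox2, Sox4 and Sox11 have a single exon, whereas transcripts of Sox5 and Sox6 reach 15 and 17 exons.

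The 250 bases before the RefSeq start (GRCm38.p6) are shown for the SoxC genes, which fell together with age, and for Sox2 and Sox8, which were high together at P14 and P21. Each is printed 5′ to 3′ on the gene's own strand, with capitals on GC boxes (GGGCGG, or CCGCCC on the other strand, overlapping matches counted).
Sox4: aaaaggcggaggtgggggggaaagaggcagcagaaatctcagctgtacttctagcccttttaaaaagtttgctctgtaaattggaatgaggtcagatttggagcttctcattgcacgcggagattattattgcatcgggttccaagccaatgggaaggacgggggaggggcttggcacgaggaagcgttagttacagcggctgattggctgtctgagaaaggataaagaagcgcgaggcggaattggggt
Sox11: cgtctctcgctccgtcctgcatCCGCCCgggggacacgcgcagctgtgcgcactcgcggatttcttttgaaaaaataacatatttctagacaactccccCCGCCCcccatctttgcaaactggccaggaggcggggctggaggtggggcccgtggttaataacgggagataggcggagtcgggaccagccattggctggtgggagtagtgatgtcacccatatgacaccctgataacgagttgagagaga
Sox12: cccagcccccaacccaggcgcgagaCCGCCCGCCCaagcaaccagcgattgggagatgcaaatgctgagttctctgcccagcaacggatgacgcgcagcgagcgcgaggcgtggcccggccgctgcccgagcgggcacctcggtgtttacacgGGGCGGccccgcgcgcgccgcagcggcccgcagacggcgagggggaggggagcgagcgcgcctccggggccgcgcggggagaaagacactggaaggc
Sox2: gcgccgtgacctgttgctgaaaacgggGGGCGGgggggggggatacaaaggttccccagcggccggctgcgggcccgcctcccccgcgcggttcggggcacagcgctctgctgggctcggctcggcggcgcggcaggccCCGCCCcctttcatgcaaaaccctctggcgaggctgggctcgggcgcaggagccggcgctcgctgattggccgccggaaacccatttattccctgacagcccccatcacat
Sox8: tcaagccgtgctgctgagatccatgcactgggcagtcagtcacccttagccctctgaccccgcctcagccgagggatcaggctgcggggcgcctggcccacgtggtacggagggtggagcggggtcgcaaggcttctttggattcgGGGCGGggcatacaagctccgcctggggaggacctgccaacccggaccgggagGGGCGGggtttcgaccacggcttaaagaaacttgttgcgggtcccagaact
These windows lie at chr13:28953700-28953949 (Sox4), chr12:27342719-27342968 (Sox11), chr2:152398047-152398296 (Sox12), chr3:34649745-34649994 (Sox2) and chr17:25570687-25570936 (Sox8). Sox4 had 0 GC boxes, Sox11 had 2, Sox12 had 3, Sox2 had 2 and Sox8 had 2, while 32.7% of 32851 windows of this length hold at least 1. The CCAAT letters (CCAAT or ATTGG) were found 4 times before Sox4 and 1 time each before Sox11, Sox12 and Sox2, against 33.8% of windows with a match. CpG counts were 11 (Sox4), 17 (Sox11), 35 (Sox12), 27 (Sox2) and 18 (Sox8), with a median of 6 over all windows. None of these 5 windows held TATAAA or its reverse, found in 12.4% of windows. None held the letters of the Sox core motif ACAAT or ATTGT either, found in 27.7%. These matches describe letters in a window and not binding.

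The levels of each Sox gene by library show opposite courses for the SoxC genes and the glial Sox genes during development, and a level near 0 for Sox2 and Sox4 in the injured adults.

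**Figure D1:**
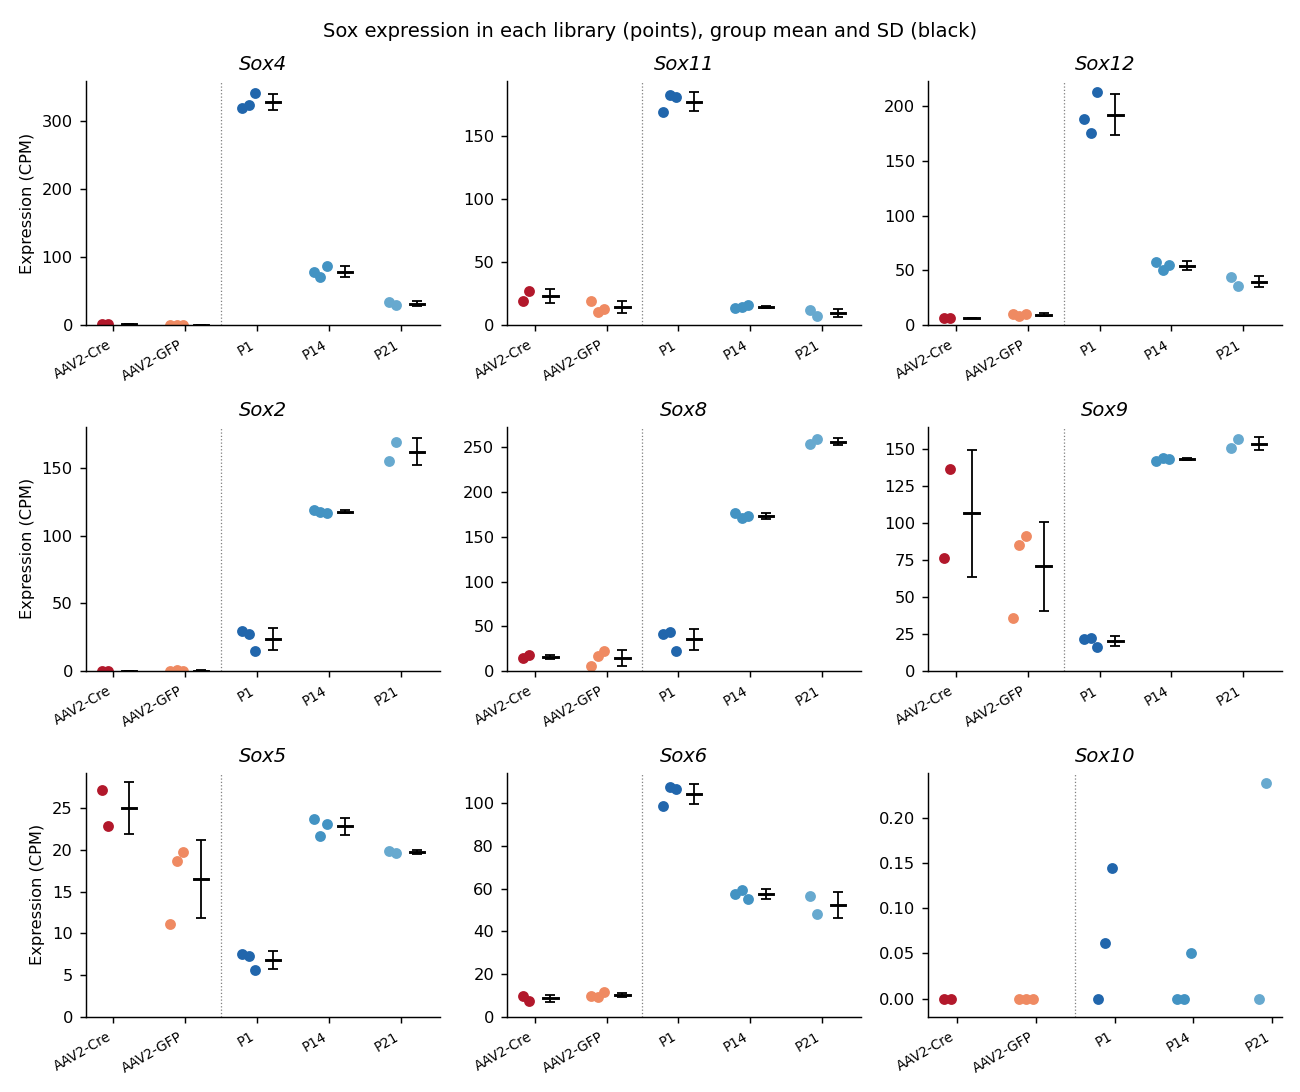
Expression of each Sox gene in CPM (linear axes) with 1 point per library, for AAV2-Cre and AAV2-GFP on the left of the dotted line and P1, P14 and P21 on its right. Black lines are group means with SD bars, left out for Sox10, which had at most 8 counts. Sox4 lies at 319 CPM or more in the P1 libraries and at 1.41 CPM or less in the AAV2-Cre and AAV2-GFP libraries.

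SoxC genes were highest at P1. Sox4 had 319, 323 and 342 CPM at P1, 78.0, 70.2 and 86.7 CPM at P14, and 33.8 and 29.0 CPM at P21. It had 1.09 and 1.41 CPM in AAV2-Cre (15 and 22 counts) and 0.503, 0.544 and 0.662 CPM in AAV2-GFP (7, 9 and 11 counts). No neighbouring groups overlapped in the order P1, P14, P21, AAV2-Cre and AAV2-GFP. Sox11 had 169, 182 and 180.5 CPM at P1, 13.9, 14.2 and 15.7 CPM at P14, and 12.1 and 7.18 CPM at P21. It had 19.0 and 27.3 CPM in AAV2-Cre and 19.5, 10.6 and 13.1 CPM in AAV2-GFP. P1 thus stood alone at the top, and the AAV2-GFP libraries overlapped with AAV2-Cre, P14 and P21. Sox12 had 189, 176 and 213 CPM at P1, 58.1, 50.3 and 55 CPM at P14, and 43.6 and 36.0 CPM at P21. It had 6.90 and 6.97 CPM in AAV2-Cre and 10.2, 8.04 and 10.4 CPM in AAV2-GFP, with no overlap between neighbours in that order of means.

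Because counts grow with transcript length, levels of different genes were compared per kilobase of exon. Summed over SoxC on this scale, the level was 4.61 ± 0.757 CPM per kb in AAV2-Cre (SD, n = 2), 4.0 ± 0.782 in AAV2-GFP (n = 3), 133.0 ± 6.79 at P1 (n = 3), 30.3 ± 2.37 at P14 (n = 3) and 16.6 ± 2.33 at P21 (n = 2). Sox4 made up 51.5% ± 0.85 of it at P1, 53.8% ± 1.86 at P14 and 39.4% ± 1.27 at P21. In the injured adults it made up 5.64% ± 0.0778 in AAV2-Cre and 3.05% ± 0.734 in AAV2-GFP. Sox11 made up 60.1% ± 5.37 in AAV2-Cre and 42.8% ± 5.85 in AAV2-GFP, but 16.0% ± 0.85 at P1, 5.81% ± 0.397 at P14 and 6.87% ± 1.56 at P21. The members of SoxC therefore ranked differently in the injured adults and in development, with Sox4 lowest in every injured library and Sox11 lowest in every development library.

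**Figure D2:**
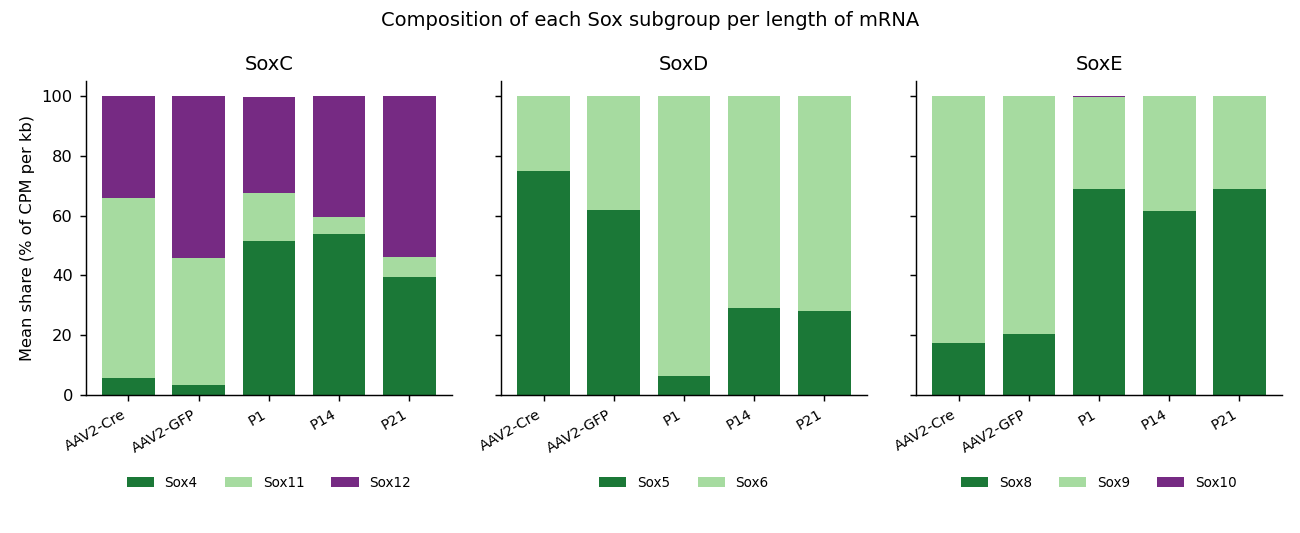
Mean share of each member in the summed level of its subgroup, in percent of CPM per kb of exon, as stacked bars for the 5 groups. Sox11 takes 60.1% of SoxC in AAV2-Cre and 16.0% at P1, and Sox5 takes 75.1% of SoxD in AAV2-Cre and 6.29% at P1.

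The SoxD genes moved against each other. Sox6, which acts in cortical interneurons, oligodendrocyte precursors and cartilage, had 98.9, 108 and 107 CPM at P1, 57.7, 59.6 and 55 CPM at P14, and 56.7 and 48.2 CPM at P21. It had 9.73 and 7.42 CPM in AAV2-Cre and 9.70, 9.37 and 11.4 CPM in AAV2-GFP. P14 overlapped with P21, and AAV2-Cre with AAV2-GFP. Sox5, which acts in projection neurons of the cortex, had 7.53, 7.24 and 5.55 CPM at P1, 23.7, 21.7 and 23.1 CPM at P14, and 19.9 and 19.6 CPM at P21. It had 27.2 and 22.8 CPM in AAV2-Cre and 11.1, 18.6 and 19.7 CPM in AAV2-GFP. P1 was the lowest group, AAV2-Cre overlapped with P14, and AAV2-GFP with P21. Per kilobase, Sox6 made up 93.7% ± 1.11 of SoxD at P1 (SD, n = 3), 70.9% ± 1.55 at P14 (n = 3) and 72.0% ± 2.05 at P21 (n = 2). It made up 24.9% ± 1.27 in AAV2-Cre (n = 2) and 38.2% ± 6.77 in AAV2-GFP (n = 3), so that Sox5 was the larger member there.

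Sox2, Sox8 and Sox9 were low at P1 and high at P14 and P21. Sox2 had 29.4, 27.6 and 14.5 CPM at P1, 119, 118 and 117 CPM at P14, and 155 and 169 CPM at P21. In the injured adults it had 1 and 1 counts in AAV2-Cre (0.0726 and 0.0639 CPM) and 1, 9 and 4 counts in AAV2-GFP (0.0718, 0.544 and 0.241 CPM). The highest injured library was below the lowest library of development. Sox8 had 40.8, 43.2 and 22.0 CPM at P1, 177, 171 and 173 CPM at P14, and 254 and 259 CPM at P21. It had 14.3 and 17.5 CPM in AAV2-Cre and 5.10, 16.3 and 22.8 CPM in AAV2-GFP, groups that overlapped with each other, while 22.8 CPM in AAV2-GFP replicate 3 was above 22.0 CPM in P1 replicate 3. Sox9 had 21.8, 22.3 and 16.3 CPM at P1, 142, 144 and 143 CPM at P14, and 150.2 and 156 CPM at P21. It had 76.1 and 137 CPM in AAV2-Cre and 36.0, 84.8 and 91.0 CPM in AAV2-GFP. Sox9 in the injured adults thus lay above P1 and below P14, with AAV2-Cre and AAV2-GFP overlapping.

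Library by library, the glial members moved with the Müller glia markers in part. P1 replicate 3 was the lowest P1 library for Sox2, Sox8 and Sox9 and had 2565 CPM of summed Müller markers, against 6330 and 6746 CPM in the other P1 libraries. AAV2-GFP replicate 1 was the lowest AAV2-GFP library for Sox2, Sox5, Sox8 and Sox9 and had 4288 CPM of these markers. Their part in the levels of the Sox genes was not tested. Between datasets the marker sum mixes opposite members. Of the 16 markers, 8 had a higher and 8 a lower mean in AAV2-Cre than at P1, 7 had a higher and 9 a lower mean in AAV2-GFP than at P1, and all 16 were lower in both injured groups than at P21. Glul, the glutamine synthetase of Müller glia, had a mean CPM of 138 (AAV2-Cre), 171.5 (AAV2-GFP), 1851 (P1) and 16212 (P21), so it was lower in the injured adults, as Sox2 was. The potassium channel gene Kcnj10 (11.9, 12.2, 78.6 and 739.7 CPM in those groups) and the retinoid carrier gene Rlbp1 (147.7, 132.6, 356.4 and 3352 CPM) were lower there too. Apoe, a lipid carrier gene that macrophages also express, had a mean CPM of 2124.5 (AAV2-Cre), 1960.2 (AAV2-GFP), 724 (P1) and 6855 (P21). Other markers also stood above P1 in both injured groups. Among them were Aqp4 (360.9, 255.8, 60.1 and 562.6 CPM in those groups) and Car2 (711.3, 630.8, 171.3 and 1487 CPM). Dkk3 (1568, 1223, 661 and 4627 CPM) and Slc1a3 (390.6, 288.1, 222.4 and 1839 CPM) were likewise above P1. In the injured adults there were 0.000468 to 0.000954 Sox2 counts per Sox9 count in AAV2-Cre and 0.002 to 0.00641 in AAV2-GFP, against 0.889 to 1.35 at P1, 0.816 to 0.839 at P14 and 1.03 to 1.08 at P21. Sox8 counts per Sox9 count were 0.128 to 0.188 in AAV2-Cre and 0.142 to 0.25 in AAV2-GFP, against 1.35 to 1.94 at P1, 1.19 to 1.25 at P14 and 1.66 to 1.69 at P21. Sox2ot, a noncoding gene on the same strand that encloses Sox2 and shares no exon base with it, was counted in every library. It had 10.5 ± 2.80 CPM in AAV2-Cre (SD, n = 2), 11.8 ± 6.04 in AAV2-GFP (n = 3), 6.07 ± 2.10 at P1 (n = 3), 27.7 ± 0.972 at P14 (n = 3) and 32.8 ± 2.19 at P21 (n = 2).

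**Figure D3:**
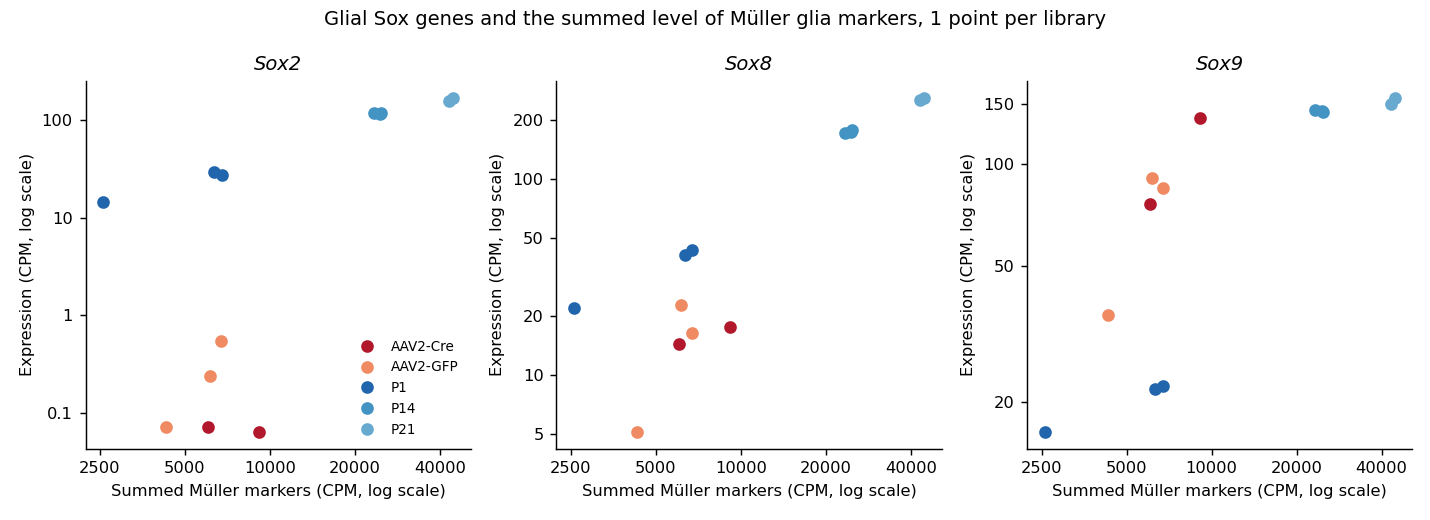
Expression of Sox2, Sox8 and Sox9 in CPM against the summed CPM of 16 Müller glia markers, both on log axes, with 1 point per library colored by group. Between 6058 and 6746 CPM of markers, Sox2 lies at 0.544 CPM or less in the injured adults and at 27.6 CPM or more at P1, but these sums hold different members, with Glul at a mean of 171.5 CPM in AAV2-GFP and 1851 CPM at P1 and Apoe at 1960.2 CPM in AAV2-GFP and 724 CPM at P1.

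Sox10, the SoxE factor of oligodendrocytes, Schwann cells and melanocytes, had 0 counts in all 5 injured libraries. A count of 0 allows up to 3 counts, or 0.181 to 0.218 CPM per library there, for counting error only. It had 0, 2 and 5 counts at P1, 0, 0 and 2 at P14, and 0 and 8 at P21, and was too low for a test. Markers of its cell types were uneven. Cnp, a myelin enzyme gene, had a mean CPM of 87.6 (P14) and 165.1 (P21), Pmp22, a peripheral myelin gene, 127.5 (P14) and 164.0 (P21), and Cspg4, a gene of oligodendrocyte precursors and pericytes, 281.4 (P14) and 26.7 (P21). Opalin, another myelin gene, was at 0 counts in AAV2-Cre, AAV2-GFP, P1 and P21, and Foxd3, a neural crest factor, in all 5 groups. The oligodendrocyte factor Olig2 was at 0 in AAV2-Cre and AAV2-GFP and had a mean CPM of 2.59 (P1), 0.875 (P14) and 0.0547 (P21). Mbp, which encodes myelin basic protein and has transcripts outside myelin, had a mean CPM of 87.3 (AAV2-Cre), 67.7 (AAV2-GFP), 41.3 (P1), 35.9 (P14) and 57.9 (P21). The summed CPM of the oligodendrocyte list ranged between 139.0 and 178.7 for AAV2-Cre, 101.8 and 118.3 for AAV2-GFP, 114.3 and 125.6 for P1, 395.5 and 453.8 for P14, and 260.0 and 271.1 for P21. Cspg4 was its largest member at P14. By gene, 4 were higher and 5 lower of 10 tested at P14 against P1 (median log2 fold change -0.14), beside 33.6% and 33.6% of all genes. Mog, for 1, had a mean CPM of 12.6 (P1) and 0.613 (P14). The sum of the Schwann cell and melanocyte list ranged between 43.5 and 49.5 for AAV2-Cre, 43.0 and 73.1 for AAV2-GFP, 27.0 and 41.6 for P1, 135.3 and 139.1 for P14, and 173.0 and 174.9 for P21. Most of it was Pmp22, and by gene 3 were higher and 2 lower of 5 tested at P14 against P1.

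P14 against P1 compares these genes between sorted cells of postnatal days 14 and 1, whose cell type markers differed as well. All 8 members tested passed (adjusted p under 0.05 over all 20890 genes tested, edgeR), 4 higher and 4 lower at P14, and Sox10 did not pass the low-count filter. Among all genes, 33.6% were called higher and 33.6% lower, with a median log2 fold change of -0.01. The SoxC genes and Sox6 fell. Sox11 was 12.4-fold lower at P14 (log2 fold change -3.63, SE 0.14, Benjamini-Hochberg adjusted p = 2.23e-08 from edgeR), Sox4 4.28-fold lower (-2.10, SE 0.08, adjusted p = 2.06e-08 from edgeR) and Sox12 3.6-fold lower (-1.85, SE 0.09, adjusted p = 6.65e-08 from edgeR). Sox6 was 1.86-fold lower (-0.89, SE 0.07, adjusted p = 1.2e-06 from edgeR). The glial members and Sox5 rose. Sox9 was 6.94-fold higher (2.80, SE 0.11, adjusted p = 2.23e-08 from edgeR), Sox2 4.84-fold (2.27, SE 0.21, adjusted p = 6.67e-06 from edgeR) and Sox8 4.80-fold (2.26, SE 0.21, adjusted p = 5.55e-06 from edgeR). Sox5 was 3.30-fold higher (1.72, SE 0.12, adjusted p = 7.12e-07 from edgeR). Without P1 replicate 3, the log2 fold changes of Sox2, Sox8 and Sox9 were 2.01, 2.01 and 2.65. RGC markers moved the same way as SoxC (2 higher and 16 lower of 18 tested, median -2.99), and Müller glia markers the same way as the glial members (16 higher of 16, median 2.07). Other lists rose as well, namely pericyte and smooth muscle (11 higher of 11, median 4.39), endothelial (12 of 12, 3.95), microglia and macrophage (14 of 14, 3.87), astrocyte (8 of 8, 3.14) and rod markers (14 of 15, 2.85). Their part in the changes of the Sox genes was not tested.

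**Figure D4:**
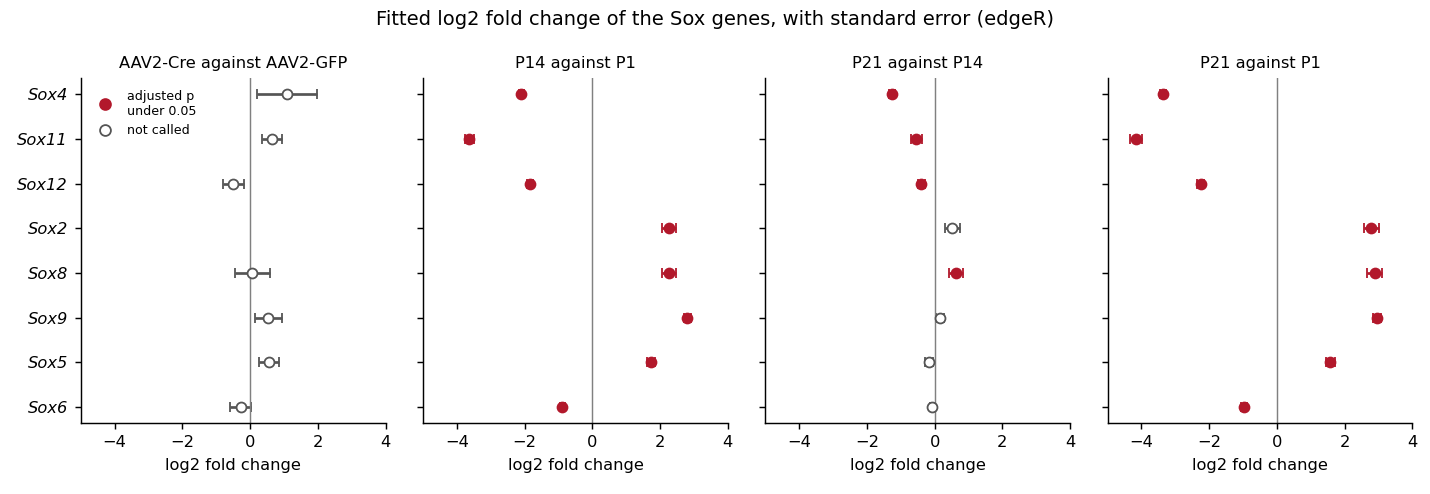
Log2 fold change of each Sox gene in the 4 comparisons, fitted with edgeR, with bars for the standard error, filled points for adjusted p under 0.05 and open points for genes not called. All 8 genes tested are called at P14 against P1, and none of 7 in AAV2-Cre against AAV2-GFP. Sox2 was not tested in AAV2-Cre against AAV2-GFP, and Sox10 was tested in none.

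P21 against P14 covers the following week and shares the P14 libraries with the comparison before it. Of 8 members tested, 1 was higher (14.6% of all genes), 3 were lower (19.3% of all genes) and 4 were not called, and the median of all genes was -0.00. Sox4 was 2.40-fold lower (log2 fold change -1.26, SE 0.09, Benjamini-Hochberg adjusted p = 1.87e-05 from edgeR), and it stayed called with each library left out in turn (-1.37 to -1.18). Sox12 was 1.32-fold lower (-0.40, SE 0.10, adjusted p = 0.013 from edgeR), but not without P21 replicate 2 (-0.29, adjusted p = 0.0975 from edgeR). Sox11 was 1.45-fold lower (-0.54, SE 0.16, adjusted p = 0.0309 from edgeR). Its value rested on P21 replicate 2, without which it was -0.23 (adjusted p = 0.112 from edgeR), and its call was also lost without P14 replicate 1, 2 or 3 (adjusted p = 0.0601, 0.0654 and 0.095 from edgeR). P21 replicate 2 had 657 CPM of summed RGC markers and P21 replicate 1 had 982 CPM, and whether this bears on Sox11 was not tested. Sox8 was 1.54-fold higher (0.62, SE 0.21, adjusted p = 0.0496 from edgeR). The Sox8 call was lost without P1 replicate 1, any P14 replicate or either P21 replicate (adjusted p from 0.0582 to 0.158 from edgeR), although its log2 fold change stayed between 0.58 and 0.64. Sox2 had no overlap between P21 and P14, as 59.1% of all genes had none, but was not called (0.52, SE 0.22, adjusted p = 0.0959 from edgeR). Without P1 replicate 3, Sox2 and Sox9 were called too (0.52 and 0.16, adjusted p = 1.88e-05 and 0.0231 from edgeR). Sox5 had a log2 fold change of -0.16 and Sox6 of -0.07, neither called.

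P21 against P1 uses the same P1 libraries and gives the net change over both intervals. All 8 members tested passed again, 4 higher (34.1% of all genes) and 4 lower (33.6% of all genes). Sox11 was 18.0-fold lower at P21 (log2 fold change -4.17, SE 0.18), Sox4 10.3-fold (-3.36, SE 0.10), Sox12 4.74-fold (-2.25, SE 0.10) and Sox6 1.96-fold (-0.97, SE 0.08). Sox9 was 7.75-fold higher (2.95, SE 0.12), Sox8 7.38-fold (2.88, SE 0.22), Sox2 6.94-fold (2.79, SE 0.23) and Sox5 2.96-fold (1.57, SE 0.13). Benjamini-Hochberg adjusted p from edgeR ran from 1.77e-08 for Sox4 to 2.51e-06 for Sox5. Sox11 had a log2 fold change of -3.63 at P14 against P1 and -0.54 at P21 against P14 (-0.96 to -0.23 with 1 library left out), and Sox4 had -2.10 and -1.26. Whether the SoxC genes differed in timing was not tested. RGC markers were 18 lower of 18 tested (median -4.42), and immature neuron genes 1 higher and 11 lower of 12 (median -4.2). Müller glia markers were 16 higher of 16 (median 3.11), astrocyte markers 8 of 8 (2.46) and endothelial markers 12 of 12 (2.04). The part of these cell types in the net changes was not tested.

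AAV2-Cre against AAV2-GFP compares Thy1.2-sorted cells of injured adults after the Kdm6a knockout and after the GFP vector. These sorted cells held more than RGCs. None of 7 members tested was called by edgeR, where 1.33% of all genes were called higher and 0.294% lower, and the median log2 fold change of all genes was -0.03. At an unadjusted p under 0.05 the count of members was also 0 of 7 with edgeR, beside 3028 of 18395 genes. It was 0 of 7 with DESeq2 and 1 of 7 with limma-voom. It was 2 of 8 without a filter, 4 of 8 with all 13 libraries in 1 fit and 1 of 7 with a replicate block. The share of all genes at this unadjusted threshold was not counted for these other settings. Their counts are therefore not a result about the members. Past the adjusted threshold, 0 members were left in these settings, except with all 13 libraries in 1 fit. That fit called 1 member, beside 1433 genes higher and 1071 lower of 23844 tested. Sox4 had a log2 fold change of 1.08 (SE 0.88, adjusted p = 0.606 from edgeR), at 1.25 ± 0.224 CPM in AAV2-Cre (SD, n = 2) and 0.570 ± 0.0828 CPM in AAV2-GFP (n = 3). The libraries did not overlap, but they held 7 to 22 Sox4 counts each. Sox11 had 0.65 (SE 0.30, adjusted p = 0.331 from edgeR), with AAV2-Cre replicate 1 below AAV2-GFP replicate 1. Sox5 had 0.55 (SE 0.30, adjusted p = 0.404 from edgeR) and Sox12 -0.50 (SE 0.31, adjusted p = 0.480 from edgeR), both without overlap. These 3 of 7 members stand beside 35.1% of all genes tested whose AAV2-Cre and AAV2-GFP libraries did not overlap. Sox9 had 0.54 (SE 0.39), Sox6 -0.28 (SE 0.30) and Sox8 0.06 (SE 0.52), all with overlap. Sox2 and Sox10 were too low for a test. The spread was wider here than in development, with a biological coefficient of variation of 0.34 against 0.109. The summed B cell markers did not overlap between these groups, at 741.0 to 1404.5 CPM in AAV2-Cre and 333 to 544 CPM in AAV2-GFP, with 2 of 13 called higher. T and NK cell markers summed to 977 to 1669 CPM in AAV2-Cre and 439 to 787 CPM in AAV2-GFP, with 0 of 15 called. Amacrine sums (374.0 to 378.7 CPM in AAV2-Cre and 276.4 to 312.7 CPM in AAV2-GFP, 1 of 9 called higher) did not overlap either. The same held for oligodendrocyte sums (139.0 to 178.7 and 101.8 to 118.3 CPM, 0 of 6 called). It held for progenitor and cell cycle sums too (757.1 to 910.3 and 580.9 to 699.9 CPM, 0 of 14 called). RGC, Müller glia and astrocyte sums overlapped. Their part in the values of the Sox genes was not tested.

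Other genes of the family and of these pathways were read from lists. For all genes, 33.6% were called higher and 33.6% lower at P14 against P1 (median -0.01). The shares were 14.6% and 19.3% at P21 against P14 (median -0.00). They were 1.33% and 0.294% in AAV2-Cre against AAV2-GFP (median -0.03). The counts of every list below stand beside these shares. Of 10 other Sox genes, 8 were tested in development, and at P14 against P1 6 passed as higher, 0 as lower and 2 were not called (median 2.29). They included Sox18 (log2 fold change 3.89) and Sox17 (3.58), both of the vessel lining, Sox13 (1.98), the remaining SoxD gene, and Sox3 (1.36), a SoxB1 gene. At P21 against P14, 0 were higher and 4 lower (median -1.12), among them Sox3 (-2.43), Sox1 (-2.06) and Sox18 (-1.40). Endothelial markers moved in the same directions, with 12 higher of 12 at P14 against P1 and 9 lower of 12 at P21 against P14, and their part was not tested. In AAV2-Cre against AAV2-GFP, 0 of 3 other Sox genes tested were called.

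Partner factors of Sox proteins went in both directions, as all genes did (33.6% higher and 33.6% lower at P14 against P1). At P14 against P1, 5 were higher, 5 lower and 2 not called of 12 tested (median 0.06). Nfia, Nfib and Nfix, nuclear factor I genes that act in glia, had log2 fold changes of 2.5, 2.34 and 2.89, and Pou3f1, a POU factor, of -4.06. At P21 against P14, 3 were higher, 2 lower and 7 not called (median 0.01), among them Pou3f2 (1.04), Chd7 (0.51) and Pax6 (0.35). None of 8 was called in AAV2-Cre against AAV2-GFP (median -0.05). Genes of immature neurons, some of them known SoxC targets, stood at 1 higher and 11 lower of 12 at P14 against P1 (median -3.55). Stmn1 (-3.21) and Map2 (-1.04), which bind microtubule proteins, fell, while Tead2, a Hippo pathway factor and SoxC target in the mouse embryo, rose (1.94). At P21 against P14 they stood at 0 higher, 2 lower and 10 not called (median -0.30), and none of 12 was called in AAV2-Cre against AAV2-GFP (median 0.25).

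Of the listed cartilage matrix genes, a kind that Sox9 with Sox5 and Sox6 switches on in cartilage, mainly the collagens were present. Acan averaged 0.32 CPM or less in every group, Matn1 and Matn3 0.0363 CPM or less, and Comp and Hapln1 4.68 CPM or less. Whether Sox genes bear on the collagens here was not tested. At P14 against P1, 5 were higher, 1 lower and 3 not called of 9 tested (median 1.25). The collagens Col9a1 (log2 fold change 3.59), Col2a1 (3.06) and Col9a3 (2.69) rose. Col11a2 had a mean CPM of 69.8 at P1 and 48.1 at P14, and Col11a1 of 43.8 and 46.2. Col9a1 averaged 79.5 ± 16.9 CPM in AAV2-Cre (SD, n = 2), 88.7 ± 53.0 in AAV2-GFP (n = 3), 222 ± 16.2 at P1 (n = 3), 2740.5 ± 103.0 at P14 (n = 3) and 1507 ± 51.3 at P21 (n = 2). At P21 against P14, 1 was higher and 6 were lower of 9 (median -0.81), while Sox9 was not called there. None of 8 was called in AAV2-Cre against AAV2-GFP (median -0.21). At P21 against P14, 16 Müller glia markers split into 8 higher, 1 lower and 7 not called (median 0.94), and 1 of them (Vim, 0.91) was higher in AAV2-Cre than in AAV2-GFP. Astrocyte markers stood at 8 higher of 8 at P14 against P1 (median 3.14) and at 2 higher and 4 lower at P21 against P14 (median -1.04). In AAV2-Cre, 1 of 6 astrocyte markers tested was higher than in AAV2-GFP (Gfap, 1.95).

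The genes most like each member were those with the highest Pearson r of log2 CPM over the 8 development libraries among 11392 genes, which share 3 ages and the same libraries. For Sox11 they were Kif5c, a neuronal kinesin (r = 0.9996), Pkia (0.9995) and Tmeff1 (0.9994). For Sox4 they were Ppp1r14b (0.9994), Neurod2, a neuronal bHLH factor (0.9993), and Fabp3 (0.9988). For Sox12 they were Ywhae, a 14-3-3 gene (0.9995), Arl8a and Klhdc10 (0.9993 each). Sox2 and Sox8 shared Ccnd3, a cyclin D gene, among their nearest (0.9992 and 0.9997), beside Slco1c1, a thyroxine transporter, for Sox2 (0.9994) and Vat1l for Sox8 (0.9998). For Sox9 they were Stom (0.9997), Cnn3 (0.9995) and Slc12a4 (0.9994). For Sox5 the nearest was Rcvrn, a photoreceptor calcium sensor (0.9986), and for Sox6 Kpna3, an importin (0.9983). With 3 ages, any gene of the same course has a high r.

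Levels of the Sox genes also differed between the datasets, where dataset, age and injury cannot be told apart and no test was run. For AAV2-GFP over P21, the log2 ratio of mean CPM (pseudocount 0.1) was -8.72 for Sox2, -5.56 for Sox4, -4.11 for Sox8, -2.36 for Sox6, -2.05 for Sox12 and -1.12 for Sox9. It was -0.26 for Sox5 and 0.57 for Sox11. Over 13510 protein-coding genes the median was -0.12, and 1.98% lay below -5. Markers of other cells separated the datasets as well. Rod markers summed to 16599 to 35800.1 CPM in AAV2-Cre and 33775 to 43004 CPM in AAV2-GFP, against 1160.1 to 1899.9 CPM over the development libraries. Microglia and macrophage markers summed to 8335 to 10730.4 CPM in AAV2-Cre and 6267 to 9177 CPM in AAV2-GFP, against 31.5 to 411 CPM over the development libraries. The ratio also moved with base composition. Its median was 0.60 for genes under 45% GC in the longest transcript, 0.01 from 45% to 50%, -0.39 from 50% to 55% and -1.0 at 55% or more. Of 271 genes with a single exon, 9.23% lay below -5. Sox2 (50.5% GC), Sox4 (51.1%) and Sox11 (46.5%) have a single exon, with ratios of -8.72, -5.56 and 0.57. The part of these markers, of composition and of gene structure in the values of the Sox genes was not tested.

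**Figure D5:**
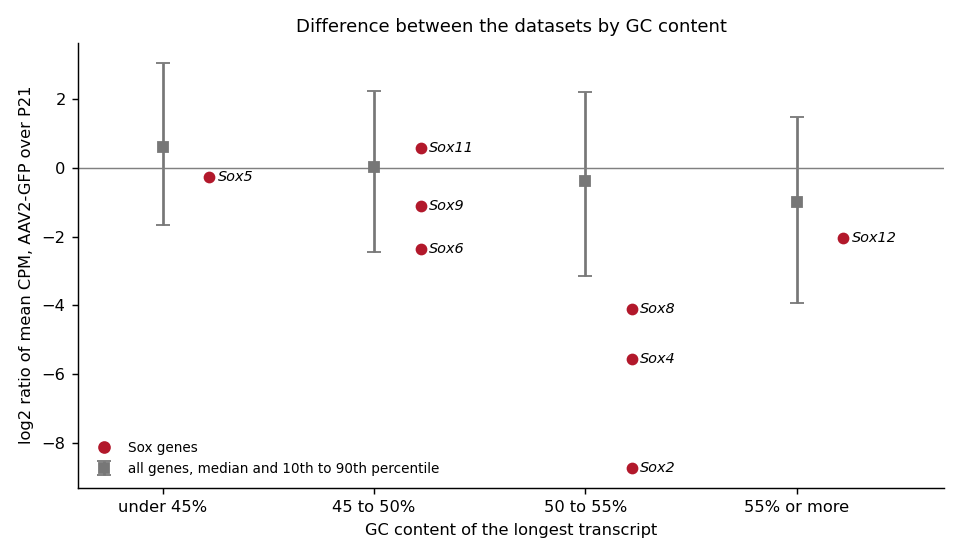
Log2 ratio of mean CPM in AAV2-GFP over P21 by GC content of the longest transcript, with squares and bars for the median and the 10th to 90th percentile of protein-coding genes and red points for Sox genes. Sox2 (-8.72), Sox4 (-5.56) and Sox8 (-4.11) lie below the 10th percentile of their class (-3.14).

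Some counts may hold reads of neighbours. Whether counting used the strand is not given in the sources used here. The noncoding gene Gm26735 lies on the other strand over 54.56% of the Sox4 exon bases. Sox5os1 covers 9.25% of the Sox5 exon bases and 2810468N07Rik covers 10.55% of those of Sox8, both on the other strand. No other member shared exon bases with another annotated gene.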

How the data were processed

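RNA-seq counts of 13 libraries were used. Per the labels and the study's methods, the authors deposited whole counts per gene, with no normalization, made by featureCounts (Subread 2.0.3) from HISAT2 2.2.1 alignments to GRCm38. Their reads had been trimmed (Trimmomatic 0.39) and quality-checked (FastQC 0.11.9). The annotation release was not given in the sources used here. Total counts per library limit precision for the lowest genes, and intervals cover counting error only. Gene symbols matched 52403 of 52550 Ensembl IDs. Exon lengths, GC content and overlaps were read from GENCODE vM21.

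In R 4.3.3, the 5 knockout and 8 development libraries were fitted separately with edgeR 4.0.16 (glmQLFit and glmQLFTest, TMM, filterByExpr), with Benjamini-Hochberg adjustment over all genes tested and a threshold of 0.05. CPM used TMM factors over all 13 libraries. The SE is the absolute log2 fold change divided by the root of F. The fit was tested on simulated data. Alternatives were DESeq2 1.42.0, limma-voom (limma 3.58.1), other scalings and filters, 1 fit of all libraries, a replicate block and each library left out in turn. All members were named, with the targeted gene, up to 4 genes of the smallest p per list and comparison, the 3 genes most like each member, and listed genes a result turned on. Markers beside Sox10 and the RGC check were named under the last of these. The members and lists were chosen with earlier results of these data known.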

Additional observations from a re-analysis of the deposited data

How the results depend on the processing

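At P14 against P1 and at P21 against P1, 8 members were called in every alternative, with the same signs. With all 13 libraries in 1 fit, 1 of 8 members tested was called in AAV2-Cre against AAV2-GFP (Sox4, log2 fold change 1.13, Benjamini-Hochberg adjusted p = 0.0257 from edgeR). Beside it, 1433 genes were higher and 1071 lower of 23844 tested. At P21 against P14, 2 members were called in this fit, beside 627 genes higher and 1997 lower of 23844. A replicate block also gave 2 members called at P21 against P14, beside 2049 genes higher and 3206 lower of 20890. It changed no other count of members. Replicate numbers were shared across groups, and deviations of same-numbered libraries from their group means correlated at -0.0413 to 0.0168. With 2 or 3 libraries per group, this cannot settle whether the same number marks a shared origin. At P21 against P14, leaving out either P21 library left 1 in that group, so no count of members is given for it. Without P21 replicate 1 and then 2, Sox11 had log2 fold changes of -0.96 and -0.23, and Sox12 of -0.53 and -0.29. Leaving out 1 P1 or P14 library gave 2 to 6 members called at P21 against P14 (4 with all libraries). There were 2 without any 1 P14 replicate, beside 2149 to 2187 genes higher and 3274 to 3333 lower of 20623 to 20744. There were 6 without P1 replicate 3, beside 3751 genes higher and 4336 lower of 20618. The count of members was 3 with DESeq2, beside 2919 genes higher and 4186 lower, and 3 without scaling, beside 2326 and 4722. It was 5 with limma-voom, beside 3684 and 4136, and 5 without a filter, beside 2889 and 4058. By library left out, Sox8 ran from -0.35 to 0.53 in AAV2-Cre against AAV2-GFP, with a negative value without AAV2-GFP replicate 1 or AAV2-Cre replicate 2. Sox6 ran from -0.19 to 0.01 at P21 against P14. The cause of these shifts was not tested. Over all genes, 298 were called in AAV2-Cre against AAV2-GFP, with 244 higher and 54 lower. The higher and lower calls were 777 and 519 with DESeq2, 360 and 96 with limma-voom, 969 and 543 without a filter, 378 and 152 at 10 counts or more in every library, and 1433 and 1071 with all 13 libraries in 1 fit. They were 232 and 23 with the block. With 1 library left out, 5 to 253 were higher and 0 to 31 lower, the fewest without AAV2-Cre replicate 1 (8 and 0) or 2 (5 and 0). At P21 against P14 they were 3047 and 4024, and 627 and 1997 with all 13 libraries in 1 fit. Without scaling, 33.0% of the calls at P21 against P14 were higher, and 43.1% with TMM, while the median of all genes at P14 against P1 was 0.11 and not -0.01. A lone library left in a group was assumed to vary like the other groups. Depth limits Sox2, Sox4 and Sox10 in the injured adults, where single libraries hold 22 counts or fewer of each.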
